A study of Mus musculus with 88 samples.

Results

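Transcripts of 6 receptors for steroid hormones were followed in the cortex of mice after an impact injury: the estrogen receptors Esr1 (ERα), Esr2 (ERβ) and Gper1, the progesterone receptor Pgr, the glucocorticoid receptor Nr3c1 and the mineralocorticoid receptor Nr3c2. The receptors were taken by gene symbol from a table of 54532 genes, so that 6 of 54532 genes are described. The rule itself reads no measured value, but its members were chosen with earlier results of these data known. The libraries hold polyadenylated RNA of cortical punches 4 mm wide from 44 mice, with 1 library from each side of every brain. The injured mice were intact C57BL/6 males and females aged 8 to 9 weeks that received 1 controlled cortical impact over the right somatosensory cortex and were killed 24 or 72 h later, and the naive mice were intact males and females of the same strain. The labels give the same age range for the naive mice.

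The impact was given under isoflurane through a craniotomy of 3 mm, with a tip of 2 mm driven 1 mm deep at 6.0 m/s for 100 ms, and was followed by buprenorphine at 0.05 mg/kg and saline. The labels name no operation and no drug for the naive mice, and name no sham group, so the injured groups differ from the naive one by craniotomy, anaesthesia and analgesia as well as by the impact. Every mouse was perfused before the punches were taken, which removes most blood from the vessels. The injured punch is called ipsilateral and the punch from the opposite hemisphere contralateral. In naive mice the right punch carries the label ipsilateral. The ipsilateral groups fitted held 15 mice at 24 h (7 females, 8 males), 14 at 72 h (8 labelled female, 6 male) and 13 naive mice (7 females, 6 males). The contralateral groups were the same but for 7 males at 72 h.

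Esr1, Esr2, Pgr, Nr3c1 and Nr3c2 encode nuclear receptors, proteins that bind a steroid in the cell, enter or remain in the nucleus and switch genes on or off at short DNA elements. Gper1 encodes a membrane receptor coupled to G proteins that answers to estradiol within minutes. In the forebrain, Nr3c1 and Nr3c2 bind the same ligand, corticosterone. Nr3c2 holds it more tightly and is known for its high level in the hippocampus. Pgr is a classical target of Esr1 in reproductive tissue and is also made by cortical neurons.

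The start regions of the Esr1, Esr2 and Pgr genes are shown as those of 3 of the 4 receptors called in injured punches at both times. That of the fourth, Nr3c1, is not printed. The sequences are from RefSeq on GRCm38.p6, span 300 bases around the annotated start, most of them before it, and are written 5′ to 3′ on the strand of the gene. Capitals mark, on either strand, the estrogen element core GGTCA, the CCAAT box, the GC box GGGCGG and the TATA box TATAAA.
Esr1, chr10:4611739-4612038, plus strand: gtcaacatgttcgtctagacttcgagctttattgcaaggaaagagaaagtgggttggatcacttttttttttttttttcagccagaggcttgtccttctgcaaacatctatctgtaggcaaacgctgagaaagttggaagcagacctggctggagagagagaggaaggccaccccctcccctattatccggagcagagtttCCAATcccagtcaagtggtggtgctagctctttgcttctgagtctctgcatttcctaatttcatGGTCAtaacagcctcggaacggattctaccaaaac
Esr2, chr12:76177210-76177509, minus strand: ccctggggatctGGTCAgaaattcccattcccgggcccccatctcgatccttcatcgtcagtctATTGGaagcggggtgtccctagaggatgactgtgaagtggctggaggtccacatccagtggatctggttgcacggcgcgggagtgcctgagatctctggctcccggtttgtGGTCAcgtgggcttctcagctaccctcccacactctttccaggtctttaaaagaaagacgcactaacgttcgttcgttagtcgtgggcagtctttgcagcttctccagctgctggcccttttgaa
Pgr, chr9:8899583-8899882, plus strand: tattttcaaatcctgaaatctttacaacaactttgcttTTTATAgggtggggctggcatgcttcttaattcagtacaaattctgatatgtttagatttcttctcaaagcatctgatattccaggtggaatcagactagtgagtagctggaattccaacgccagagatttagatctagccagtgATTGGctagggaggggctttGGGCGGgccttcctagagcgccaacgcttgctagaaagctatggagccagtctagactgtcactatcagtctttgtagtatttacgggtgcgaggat
The core GGTCA stands at +16 of Esr1 and at -238 and -75 of Esr2, a GC box at -47 of Pgr, and a CCAAT box in all 3. RefSeq gives Esr1 a second start, with a window at chr10:4709908-4710207 that holds none of the motifs searched and is not printed. Among 32851 promoter windows of the same length, 40.5% hold GGTCA, 37.4% CCAAT, 35.7% GGGCGG and 13.6% TATAAA, so none of these matches is rare. The AP-1 letters TGANTCA (7.81% of windows), the cAMP element TGACGTCA (1.79%) and the full palindromic elements of the estrogen receptors (0.07%) and of the glucocorticoid and progesterone receptors (0.00913%) are not in the windows shown, overlapping matches and both strands counted.

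The 85 libraries fitted held 13654029 to 26357622 counted reads (median 16292300), of which mitochondrial genes took 2.35 to 6.73%. Animal LF3 stood apart with 10.48% of counts from mitochondrial genes ipsilaterally and 7.8% contralaterally. It was left out of every value below unless it is said to be included. The ipsilateral library labelled female of animal PF1, at 72 h, holds male transcripts, and the labels of PM1's ipsilateral punch, which holds female transcripts, name both sexes, so that it is in no group. Whether the 2 were exchanged was not tested, and PF1 is counted by its label, among the females and in the side comparisons, unless it is said to be left out. The labels give 3 batches: A holds naive and 24 h mice, B all times and C 72 h mice alone. What a batch shared is not stated. All 6 listed markers of excitatory cortical neurons, among them Slc17a7, Camk2a and Neurod6, were present in every ipsilateral library, at 19.14 CPM or more each.

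In the annotation of GENCODE M21 on GRCm38, Esr1 lies at chr10:4611593-5005614, Esr2 at chr12:76120419-76177259, Pgr at chr9:8899833-8968611, Nr3c1 at chr18:39410545-39519421, Nr3c2 at chr8:76899442-77245012 and Gper1 at chr5:139423151-139427800. The receptors differed widely in level. Per kilobase of exon, over 26 naive punches of both sides, the median CPM (counts scaled to 1 library size) per kb were 18.7 for Nr3c1, 6.21 for Pgr, 5.22 for Nr3c2, 1.52 for Gper1, 0.169 for Esr1 and 0.0718 for Esr2. The ranges of Pgr (4.18 to 7.73) and Nr3c2 (3.99 to 7.13) overlapped, as did those of Esr1 (0.0921 to 0.299) and Esr2 (0 to 0.150), and no other neighbours in this order did. With the longest transcript in place of all exons, Esr1 came to 0.364 and Pgr to 7.71 CPM per kb, and the order was the same. Esr2 rested on at most 19 reads in any ipsilateral library, so its values carry a large counting error. The reads of Gper1 may include some of 3110082I17Rik, which overlaps it on the opposite strand, and those of Esr2 some of Gm7862 on its own strand. Whether the counting used strand is not stated.

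**Figure D1:**
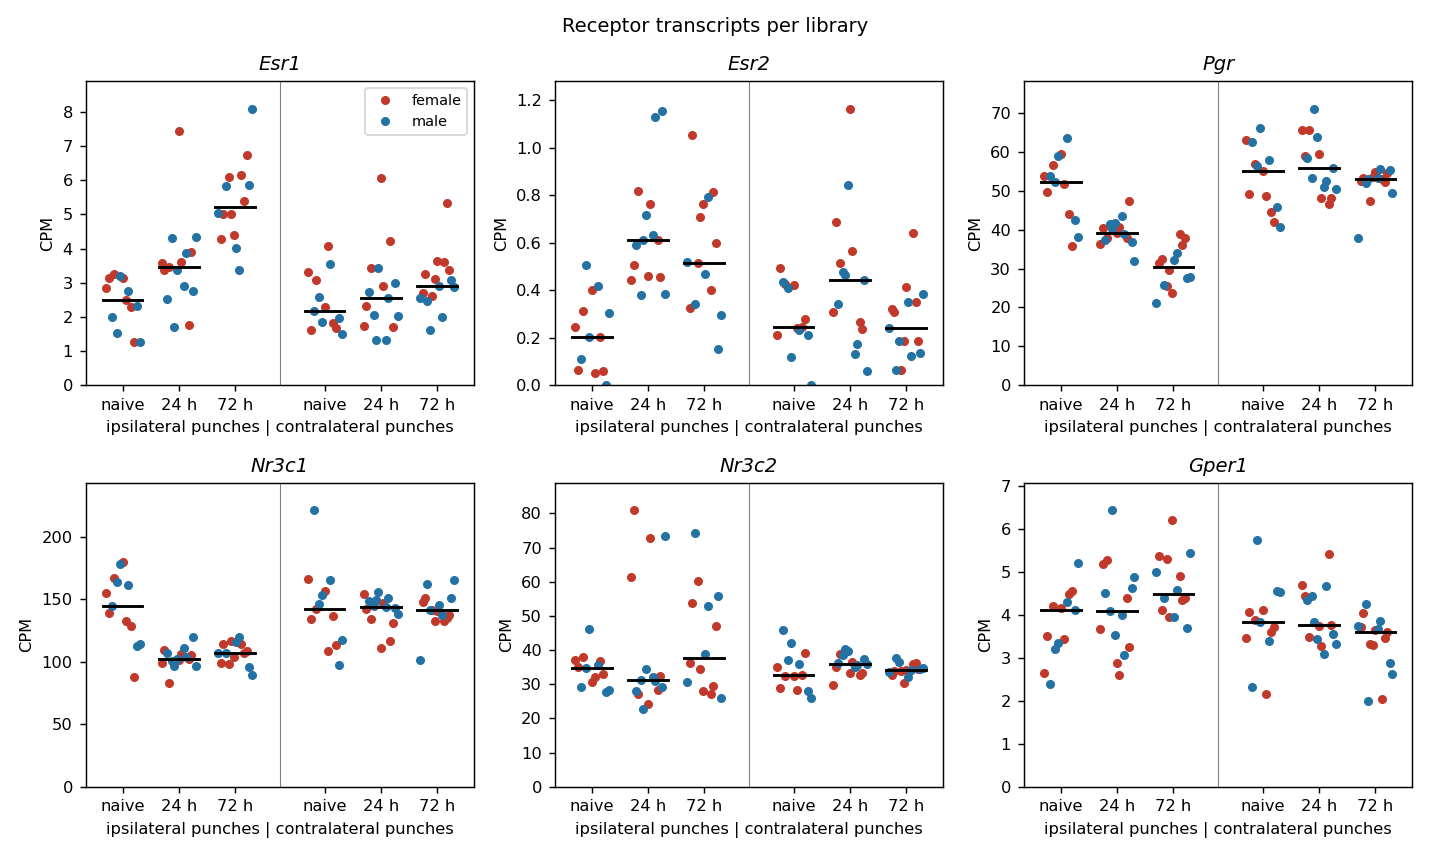
Level of each receptor (CPM, linear axis from 0) in every library by time and side, with females in red, males in blue and bars at the median of both sexes. In ipsilateral punches Esr1 and Esr2 lay higher and Pgr and Nr3c1 lower after injury, with Esr1 at 3.36 CPM or more in all 14 punches at 72 h.

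Injured cortex held more RNA of both nuclear estrogen receptors. Esr1, the receptor that carries most classical estrogen signals, ranged over 1.26 to 3.27 CPM (median 2.49) in 13 naive ipsilateral punches, 1.72 to 7.43 (3.45) in 15 at 24 h and 3.36 to 8.10 (5.23) in 14 at 72 h. At 24 h 10 of 15 punches and at 72 h all 14 stood above the highest naive punch. The log2 fold change against naive was 0.58 ± 0.18 (SE) at 24 h, with an adjusted p of 0.00752 by edgeR's quasi-likelihood test, and 1.09 ± 0.28 at 72 h, with an adjusted p of 0.0012. In these bulk samples, more or fewer cells of a type and more or less RNA per cell cannot be told apart. These calls have to be read against a large background: 50.7% of the 19062 genes tested ipsilaterally were called at 24 h and 48.4% at 72 h, at an adjusted p under 0.05, while 4 of the 6 receptors were called at each time.

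The Esr1 difference at 24 h was also taken within batches, and the batches were not shown to differ. In batch A alone it was 0.28 ± 0.20 (adjusted p = 0.299) and in batch B alone 1.07 ± 0.33 (adjusted p = 0.0162), and the difference between the batches, -0.75 ± 0.38, had an adjusted p of 0.213. At 72 h it was 1.46 ± 0.36 in batch B alone, with an adjusted p of 0.00368. Between 72 h and 24 h the change was 0.52 ± 0.25, which missed the threshold with an adjusted p of 0.109. Contralateral Esr1 at 24 h against naive was 0.723 ± 0.305 in batch B alone (adjusted p = 0.1295) and -0.15 ± 0.24 in batch A alone (adjusted p = 0.852), neither called.

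Esr2, the second nuclear estrogen receptor, had few reads in naive cortex and more in most injured punches. It had 0 to 8 reads per library in naive ipsilateral punches (0 to 0.504 CPM, median 0.204), 7 to 18 reads at 24 h (0.378 to 1.16 CPM, median 0.609) and 4 to 19 reads at 72 h (0.152 to 1.06 CPM, median 0.516). At 24 h 10 of 15 and at 72 h 8 of 14 punches exceeded the naive range, and the others lay within it. The log2 fold change was 1.49 ± 0.32 at 24 h (adjusted p = 0.000144) and 1.27 ± 0.49 at 72 h (adjusted p = 0.0295). The call at 72 h rested on single libraries. It was lost without PF2 (0.91, adjusted p = 0.197), without LM2 (1.20, adjusted p = 0.0734), without KM2 (1.04, adjusted p = 0.0613) and without KF3 (1.16, adjusted p = 0.0539). Without a filter on low counts it was 1.31 with an adjusted p of 0.0589.

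Gper1, the membrane receptor for estradiol, was not called in injured against naive ipsilateral punches. Ipsilateral punches held 2.39 to 5.21 CPM (median 4.12) when naive, 2.60 to 6.43 (4.10) at 24 h and 3.70 to 6.22 (4.49) at 72 h, and the groups overlapped over most of their range. The log2 fold change was 0.10 ± 0.13 (adjusted p = 0.538) at 24 h and 0.27 ± 0.20 (adjusted p = 0.275) at 72 h.

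Pgr, the nuclear progesterone receptor, was lower in injured punches at both times and lower at 72 h than at 24 h. Its ipsilateral level ranged over 35.7 to 63.7 CPM (median 52.4) in naive mice, 31.9 to 47.5 (39.2) at 24 h and 21.3 to 38.96 (30.5) at 72 h. Only 1 of 15 punches at 24 h but 11 of 14 at 72 h lay below the lowest naive punch. The log2 fold change was -0.33 ± 0.08 at 24 h (adjusted p = 0.000378) and -0.78 ± 0.13 at 72 h (adjusted p = 2.29e-06). From 24 h to 72 h Pgr fell by 0.45 ± 0.12 on the log2 scale (adjusted p = 0.0023), the single receptor called in that comparison, where 33.2% of all genes were called.

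Nr3c1, the glucocorticoid receptor, was lower at both times, with no call between 72 h and 24 h (0.11 ± 0.10, adjusted p = 0.463). It ranged over 87.8 to 180.0 CPM (median 144.6) in naive ipsilateral punches, 83.4 to 119.7 (102.6) at 24 h and 89.6 to 119.9 (107.1) at 72 h. The injured punches filled the lower part of the naive range, with 1 of 15 below it at 24 h and 0 of 14 at 72 h. The log2 fold change was -0.45 ± 0.07 at 24 h (adjusted p = 1.13e-06) and -0.34 ± 0.12 at 72 h (adjusted p = 0.013). Without the library of PF1 it was -0.30 ± 0.13 at 72 h, with an adjusted p of 0.0491, and no other receptor call of the ipsilateral comparisons with naive came nearer the threshold without it.

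**Figure D2:**
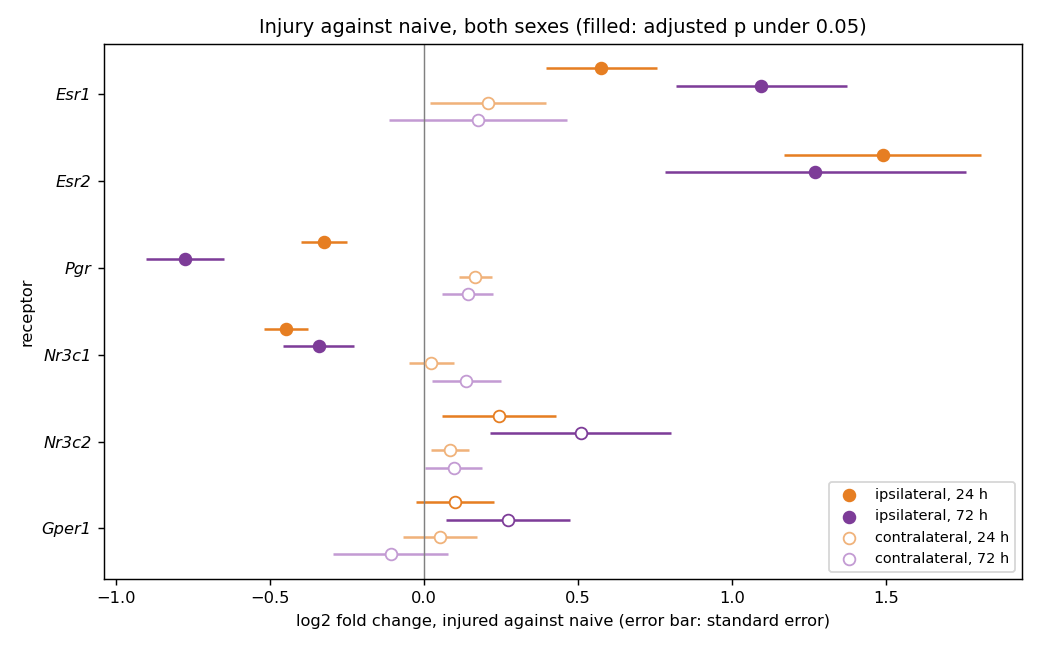
Log2 fold change of each receptor in injured against naive punches, mean of both sexes, with standard errors; dark colours are ipsilateral, pale ones contralateral, and filled points have an adjusted p under 0.05. The filled points are Esr1 and Esr2 to the right of 0 and Pgr and Nr3c1 to the left of it, all ipsilateral.

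For Pgr and Nr3c1 the size of the difference from naive depended on which naive mice were used. Naive ipsilateral punches of batch A held a median of 53.8 CPM of Pgr, against 40.4 CPM in batch B, a log2 difference of 0.42 ± 0.08 (adjusted p = 0.000339). For Nr3c1 the medians were 161.3 CPM in batch A and 113.6 CPM in batch B, a difference of 0.46 ± 0.09 (adjusted p = 0.000339). This comparison called 39.8% of 20386 genes, and Gper1, at -0.47 ± 0.19 (adjusted p = 0.0459), was the third receptor among them, a call lost with RLE size factors in place of TMM (-0.42, adjusted p = 0.077). The contralateral naive punches differed likewise, by 0.41 ± 0.09 for Pgr (adjusted p = 0.000726) and 0.42 ± 0.11 for Nr3c1 (adjusted p = 0.00276), where 40.8% of 20057 genes were called. At 24 h, of these genes, only contralateral Pgr differed between the batches past the threshold. It differed by 0.28 ± 0.07 (adjusted p = 0.0151), where 8.95% of genes were called, while contralateral Nr3c1 missed the threshold (0.13 ± 0.09, adjusted p = 0.439). Ipsilaterally at 24 h, where 8.3% of genes were called, Pgr was at 0.007 ± 0.07 (adjusted p = 0.971) and Nr3c1 at -0.07 ± 0.08 (adjusted p = 0.673).

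For both genes the difference between injured and naive punches at 24 h was not of 1 size across batches. Within batch A, Pgr had a log2 fold change of -0.51 ± 0.06 (adjusted p = 2.56e-06) and Nr3c1 had a log2 fold change of -0.68 ± 0.08 (adjusted p = 7.87e-07). Within batch B the values were -0.05 ± 0.10 for Pgr (adjusted p = 0.682) and -0.10 ± 0.09 for Nr3c1 (adjusted p = 0.377), with 8 punches at 24 h and 4 naive ones. The test of the difference between the batches gave -0.41 ± 0.11 for Pgr (adjusted p = 0.0406), -0.53 ± 0.12 for Nr3c1 (adjusted p = 0.0368) and 0.83 ± 0.25 for Gper1 (adjusted p = 0.0496), with 4.95% of genes called. It missed the threshold for Esr2 (-0.999 ± 0.743, adjusted p = 0.419) and Nr3c2 (-0.10 ± 0.34, adjusted p = 0.884). With RLE size factors the Gper1 value was 0.78 with an adjusted p of 0.0649, and those of Pgr and Nr3c1 still passed. At 72 h, batch B alone gave -0.59 ± 0.11 for Pgr (adjusted p = 0.000602) and -0.09 ± 0.10 for Nr3c1 (adjusted p = 0.474). Batch C holds 72 h mice alone, so it gives no value of its own.

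**Figure D3:**
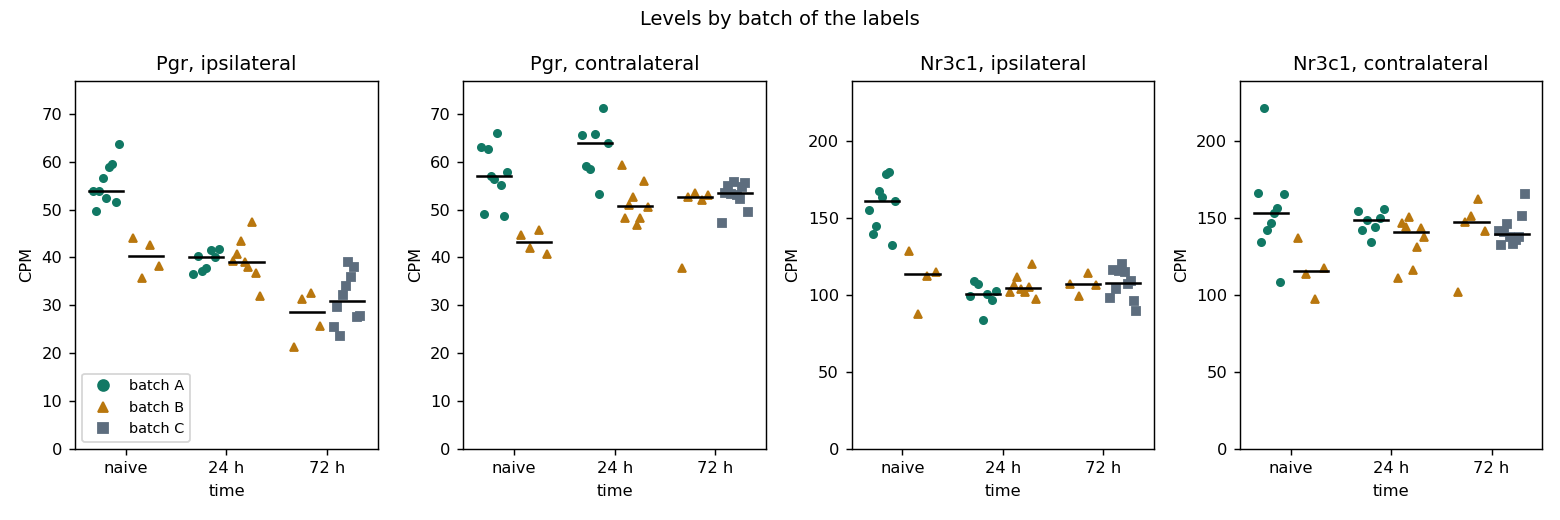
Level of Pgr and Nr3c1 (CPM, linear axis from 0) by time and by the batch given in the labels, ipsilateral and contralateral, with bars at the median of each batch. The medians of naive punches lie higher in batch A than in batch B for both genes on both sides, while ipsilateral punches at 24 h have Pgr medians of 40.2 CPM in batch A and 39.1 CPM in batch B. Contralateral punches at 24 h have Pgr medians of 63.9 CPM in batch A and 50.75 CPM in batch B.

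The punch from the opposite side of the same brain shares the batch with the injured one, and against it both receptors were lower in each batch. Pgr was lower on the injured side in 15 of 15 mice at 24 h and 14 of 14 at 72 h, with log2 differences of -0.52 ± 0.05 (adjusted p = 2.58e-11) and -0.81 ± 0.06 (adjusted p = 6.39e-17) in the fit with the animal as a block. Nr3c1 was lower in 15 of 15 mice at 24 h and 13 of 14 at 72 h, with differences of -0.45 ± 0.06 (adjusted p = 8.23e-09) and -0.40 ± 0.06 (adjusted p = 1.83e-07). At 24 h the median log2 difference of Pgr was -0.65 in the 7 mice of batch A and -0.37 in the 8 of batch B, and all 15 were below 0. At 72 h it was -0.78 in the 4 mice of batch B and -0.78 in the 10 of batch C. Nr3c1 at 24 h had medians of -0.60 in batch A and -0.35 in batch B, again with no mouse above 0. A side difference holds the levels of both punches. In batch B alone, contralateral punches at 24 h against naive gave 0.26 ± 0.10 for Pgr (adjusted p = 0.0992) and 0.22 ± 0.11 for Nr3c1 (adjusted p = 0.193) in edgeR, neither called. There the Nr3c1 medians went from 115.5 to 140.6 CPM contralaterally and from 113.6 to 104.4 CPM ipsilaterally. How much each punch carried was not tested.

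Esr1 was higher on the injured side in 11 of 15 mice at 24 h (0.40 ± 0.14, adjusted p = 0.0191) and in 14 of 14 at 72 h (0.86 ± 0.15, adjusted p = 1.52e-06). The 24 h count was 5 of 7 mice in batch A and 6 of 8 in batch B. Esr2 was higher in 11 of 15 mice at 24 h, at 0.59 ± 0.28 (adjusted p = 0.0789), and in 12 of 14 at 72 h, at 0.93 ± 0.32 (adjusted p = 0.0111). Gper1 was higher in 8 of 15 mice at 24 h (0.04 ± 0.11, adjusted p = 0.804) but in 14 of 14 at 72 h, at 0.52 ± 0.11 (adjusted p = 6.7e-05), with 4 of 4 in batch B and 10 of 10 in batch C. Thus 3 of 6 receptors were called between the sides at 24 h, where 51.6% of 19902 genes were called, and 5 of 6 at 72 h, where 64.1% were.

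**Figure D4:**
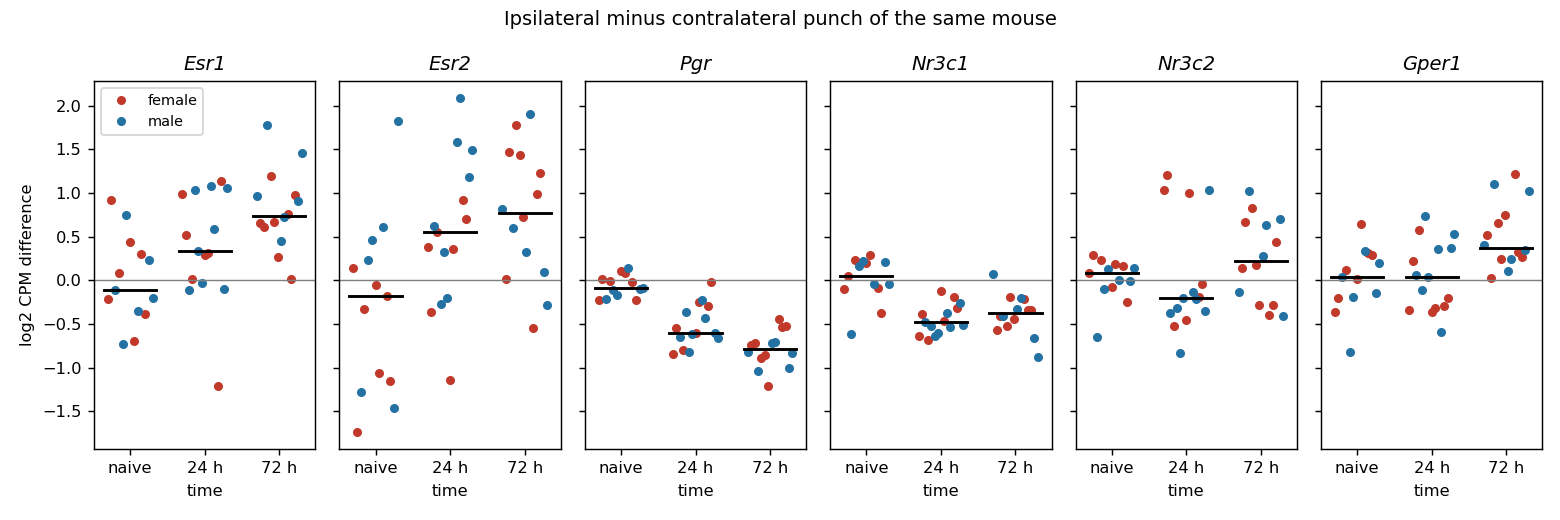
Log2 CPM of the ipsilateral punch minus that of the contralateral punch of the same mouse, 1 point per mouse, with females in red, males in blue and bars at the median. All mice at 24 h and at 72 h lie below 0 for Pgr, and all 14 mice at 72 h lie above 0 for Esr1 and Gper1, while naive mice scatter around 0.

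Naive mice showed no side difference past the threshold. Over 13 naive mice the differences ran from -0.37 ± 0.38 for Esr2 to 0.01 ± 0.06 for Nr3c1, edgeR called 0 of 6 receptors and 0% of all genes, no receptor had an unadjusted p under 0.05, and 745 genes did. DESeq2 was not run on the paired sides. The side difference of injured mice was also set against that of naive mice in the same fit, a comparison added after the data had been seen. At 24 h it was -0.45 ± 0.08 for Pgr (adjusted p = 8.51e-06) and -0.45 ± 0.08 for Nr3c1 (adjusted p = 2.92e-05), with 35.5% of genes called, while Esr1 (0.40 ± 0.22, adjusted p = 0.151) and Esr2 (0.96 ± 0.47, adjusted p = 0.114) missed the threshold. At 72 h it called 5 receptors, beside 51.6% of genes: Pgr at -0.74 ± 0.08 (adjusted p = 1.09e-10), Nr3c1 at -0.40 ± 0.09 (adjusted p = 0.000119), Esr1 at 0.86 ± 0.22 (adjusted p = 0.000812), Gper1 at 0.51 ± 0.16 (adjusted p = 0.006) and Esr2 at 1.30 ± 0.50 (adjusted p = 0.0267).

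In the contralateral punches themselves no receptor passed the threshold against naive. Pgr ranged over 40.6 to 66.1 CPM (median 55.2) in naive mice, 46.7 to 71.2 (56.0) at 24 h and 37.8 to 55.7 (53.1) at 72 h, and Nr3c1 had medians of 142.4, 144.1 and 141.2 CPM in the same order. At 24 h 6.46% of 18429 genes were called by edgeR and 0 of 5 receptors tested, 1 of which had an unadjusted p under 0.05: Pgr, at 0.17 ± 0.05 with an adjusted p of 0.0556. DESeq2 called it (0.17, adjusted p = 0.0365). The others were at 0.21 ± 0.19 for Esr1, 0.02 ± 0.07 for Nr3c1, 0.08 ± 0.06 for Nr3c2 and 0.05 ± 0.12 for Gper1. edgeR also called it without any 1 of DF3, CF2, DM2, FM2, LM2, QF2, RF1, CM1 or EM3, at 0.17 to 0.19 with adjusted p of 0.0251 to 0.0473. At 72 h 0.0922% of genes and 0 of 5 receptors were called, with 0 at an unadjusted p under 0.05, 0 by DESeq2 and log2 fold changes from -0.11 for Gper1 to 0.17 for Esr1. Esr2 had too few reads to be tested contralaterally, at 0 to 0.493 CPM in naive mice, 0.0595 to 1.17 at 24 h and 0.0633 to 0.642 at 72 h.

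Nr3c2, the mineralocorticoid receptor, spread out after injury without a common direction. Naive ipsilateral punches lay between 27.9 and 46.1 CPM (median 34.7). Those at 24 h ranged from 22.7 to 80.9 CPM (31.1) and those at 72 h from 26.0 to 74.3 (37.6). At 24 h 4 of 15 punches stood above the naive range and 3 below it, and at 72 h 6 of 14 stood above and 2 below. The log2 fold change was 0.24 ± 0.19 (adjusted p = 0.283) at 24 h and 0.51 ± 0.30 (adjusted p = 0.157) at 72 h. Against the opposite side it was 0.06 ± 0.12 (adjusted p = 0.705) and 0.25 ± 0.13 (adjusted p = 0.0742), with 4 of 15 and 9 of 14 mice higher on the injured side. Contralateral punches held 25.9 to 45.8 CPM in naive mice, 29.9 to 40.5 at 24 h and 30.5 to 37.7 at 72 h.

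Markers of hippocampal CA1, the region that lies under the impact site, were high in the same punches. Fibcd1 ranged over 6.16 to 12.9 CPM (median 9.46) in naive ipsilateral punches, 1.71 to 73.1 (2.86) at 24 h and 2.26 to 45.7 (24.8) at 72 h, and Spink8 had medians of 0.567, 0.691 and 2.18 CPM in the same order. At 24 h 4 of 15 punches exceeded the naive ipsilateral maximum of Fibcd1, and they were the 4 that exceeded that of Nr3c2. The match depends on the side taken as reference: the naive contralateral punch of GF2 held 15.5 CPM of Fibcd1, above DF2 among the 4, at 15.3 CPM. At 72 h 9 of 14 punches exceeded the naive ipsilateral maximum of Fibcd1, among them all 6 with Nr3c2 above the naive range. The 11 listed markers of hippocampus, thalamus and striatum summed to 118.4 to 176.8 CPM in naive ipsilateral punches, 106.1 to 203.3 at 24 h and 124.5 to 271.8 at 72 h, with none at 0 throughout. Another gene of the list did not single out these punches: C1ql2 of the dentate gyrus exceeded its naive ipsilateral maximum in 13 of 15 punches at 24 h and 14 of 14 at 72 h. Fibcd1 was picked from that list after the Nr3c2 values had been seen. How much of the Nr3c2 level the sampled region carried was not tested.

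**Figure D5:**
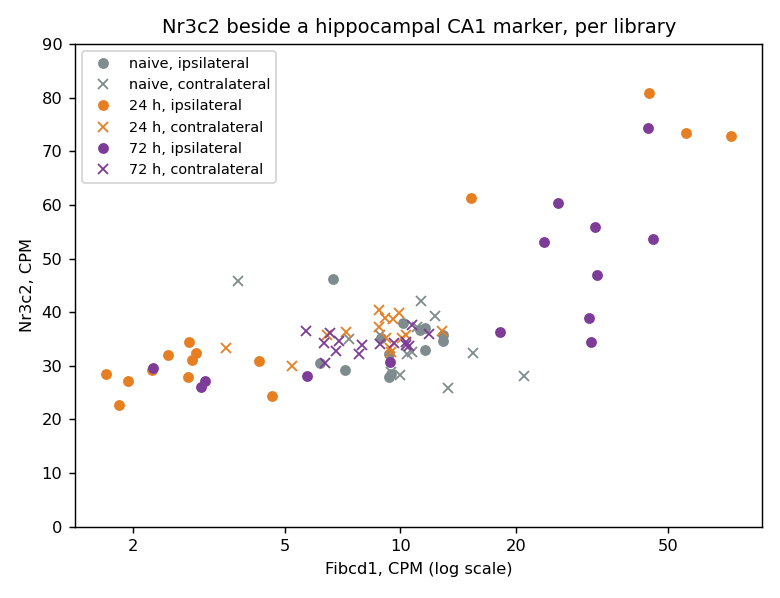
Nr3c2 (CPM, linear axis from 0) against Fibcd1 (CPM, log axis) in every library, with colours for time, discs for ipsilateral and crosses for contralateral punches. Of the injured punches, 4 at 24 h and 6 at 72 h lie above the naive ipsilateral maximum of both genes, 46.1 CPM for Nr3c2 and 12.9 CPM for Fibcd1. The naive contralateral punch of GF2 lies higher for Fibcd1, at 15.5 CPM.

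Summed markers of the cells in the punch also differed between the times, not all of them in step with the receptors. The summed level of the 6 excitatory neuron markers was 5683 to 9558 CPM (median 7650) in naive ipsilateral punches, 4873 to 6620 (6031) at 24 h and 3098 to 5379 (4709) at 72 h, and that of 6 inhibitory neuron markers had medians of 867.8, 838.9 and 522.6 CPM. The medians of Pgr fell in the same order of times as those of both sums, while the median of Nr3c1 was lowest at 24 h. In the same order of times, medians were 132.7, 2064 and 4822 CPM for 5 reactive astrocyte genes, 337.3, 349.2 and 1342 for 6 microglia genes, 5.91, 78.1 and 428.6 for 6 monocyte and macrophage genes, and 265.7, 281.5 and 480.1 for 6 endothelial genes. These sums had their highest median at 72 h, as did Esr1. So did those of 6 oligodendrocyte genes (2696, 3526 and 5262), 6 meningeal fibroblast genes (54.25, 50.55 and 214.2) and, near 0, 6 lymphocyte genes (0.3217, 0.8577 and 0.9612). At 24 h the microglia (285.1 to 384.7 CPM) and endothelial sums (239.6 to 312.1) overlapped their naive ranges (295.3 to 402.2 and 186.8 to 294.2). Some other lists had lower medians at 24 h: 1644, 1204 and 1471 for 5 astrocyte genes, 130.6, 88.7 and 290.6 for 4 oligodendrocyte precursor genes, and 243.2, 164.4 and 294.6 for 6 pericyte and smooth muscle genes. The precursor and pericyte sums, too, were highest at 72 h. The sum of 6 neutrophil genes was highest at 24 h, with medians of 9.075, 64.45 and 45.01 CPM. Among neutrophil markers Ly6g was at 0 in all naive ipsilateral punches. The part of these cells in the receptor levels was not tested.

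The receptors were also compared between the sexes, the question named in the title of the study. Per sex, injured ipsilateral punches were set against naive ones of the same sex, which called 37.6% of genes at 24 h and 42.4% at 72 h for females, and 37.3% and 41.3% for males. Pgr passed in both sexes at both times. Its log2 fold change at 24 h was -0.27 in females (adjusted p = 0.037) and -0.38 in males (adjusted p = 0.0035), and at 72 h -0.67 in females (adjusted p = 0.000192) and -0.89 in males (adjusted p = 5.85e-06). Nr3c1 passed in females (-0.44, adjusted p = 0.000384) and males (-0.45, adjusted p = 0.00023) at 24 h. At 72 h it was -0.31 in females (adjusted p = 0.0589) and -0.38 in males (adjusted p = 0.0226).

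Esr1 at 24 h was 0.58 ± 0.25 in females (adjusted p = 0.0647) and 0.57 ± 0.25 in males (adjusted p = 0.0712), and at 72 h it passed in females (0.95, adjusted p = 0.0185) and in males (1.24, adjusted p = 0.00234). Esr2 passed at 24 h in females (1.57, adjusted p = 0.00526) and males (1.41, adjusted p = 0.00943). At 72 h it was 1.80 ± 0.58 in females (adjusted p = 0.0106) and 0.74 ± 0.59 in males (adjusted p = 0.333). Its median CPM at 72 h was 0.654 in females and 0.405 in males, against 0.201 in naive females and 0.254 in naive males. The test of that sex difference, the interaction of sex and injury, gave 1.05 ± 0.64 with an unadjusted p of 0.111 and an adjusted p of 1. The ipsilateral library of PF1 stands among the females here.

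No receptor differed between the sexes beyond the threshold in ipsilateral punches. Females against males, ipsilateral, gave log2 differences from -0.43 for Esr2 to 0.27 for Esr1 in naive mice, from -0.27 for Esr2 to 0.41 for Nr3c2 at 24 h and from -0.22 for Nr3c2 to 0.62 for Esr2 at 72 h. The calls over all genes were 0.0367% in naive mice, 0.042% at 24 h and 0.0367% at 72 h. The interactions of sex and injury called 0% of genes at 24 h and 0% at 72 h by edgeR, with 517 and 707 genes at an unadjusted p under 0.05. Of the 6 receptors, 0 had an unadjusted p under 0.05 in any of these 5 ipsilateral comparisons, and 0 were called by DESeq2, which called 4 genes for the interaction at 24 h and 1 at 72 h. In contralateral punches at 24 h Esr1 stood at 0.49 ± 0.24 in females against males, with an unadjusted p of 0.0498 and an adjusted p of 1.00 by edgeR. In the ipsilateral interactions the receptors had standard errors of 0.13 to 0.64, and differences of the size of these errors were not detectable. With adjustment over 19062 genes, differences of several times these errors could also be missed.

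Plasma steroids of the same mice are given in the labels as log10 values. Over 43 mice the median for estradiol, labelled in pg/ml, was -2.76 in naive mice, -2.94 at 24 h and -3.20 at 72 h. Of these mice, 11 of 43 carry the lowest estradiol value in the labels, -3.20, and 9 of them were among the 15 at 72 h. All but PM2 of those at 72 h were of batch C, which holds 72 h mice alone. In batch B at 72 h, LM2 (-3.07), PF1 (-2.61), PF2 (-2.55) and PM1 (-2.25) lay above that value. Time and batch cannot be told apart in these medians. Values this low in pg/ml leave the labelled unit in doubt, so the estradiol values are read here only relative to each other, and a shared lowest value may be a limit of detection, which the labels do not state. In ng/ml, progesterone had medians of -0.78, -0.79 and -0.69, dehydroepiandrosterone of 0.64, 0.66 and 0.94, and androstenedione of -1.85, -2.09 and -2.50 in the same order of times. The last is a single value that most mice at 72 h share, all of them of batch C. Testosterone in males had medians of -0.80, -0.84 and -0.74.

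Within groups of sex and time, no receptor followed a labelled plasma steroid beyond the threshold. The labels give no corticosterone level, so Nr3c1 and Nr3c2 were not set against that ligand. The androgen receptor is not among the receptors described, so testosterone was not set against its own receptor. Slopes per log10 unit were fitted with group and batch as terms, for testosterone in males alone (20 ipsilateral and 21 contralateral libraries). In ipsilateral punches the share of genes called by edgeR was 0% for estradiol, 0% for progesterone, 0% for dehydroepiandrosterone, 0% for androstenedione and 0% for testosterone, with 740, 1290, 311, 846 and 577 genes at an unadjusted p under 0.05. Of 30 ipsilateral receptor slopes 0 had an unadjusted p under 0.05, and the lowest was Nr3c2 on dehydroepiandrosterone, at 0.32 ± 0.16 (unadjusted p = 0.0501, adjusted p = 1). DESeq2 was not run on slopes.

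In contralateral punches the share called was likewise 0% for each of the 5 steroids, with 2774, 289, 352, 680 and 702 genes at an unadjusted p under 0.05. Of 25 receptor slopes 2 had an unadjusted p under 0.05. Nr3c1 had a slope of 0.34 ± 0.10 on estradiol (unadjusted p = 0.00111, adjusted p = 0.273), and Pgr one of 0.14 ± 0.07 on androstenedione (unadjusted p = 0.0463, adjusted p = 0.94).

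Partners and targets of the receptors were described from lists of their own, whose counts stand beside calls for 50.7% of all genes at 24 h and 48.4% at 72 h, and, between the sides, 51.6% at 24 h and 64.1% at 72 h. Of 16 coregulators and chaperones, 3 were higher and 4 lower in injured ipsilateral punches at 24 h (median log2 fold change -0.06, against -0.001 over all genes), and 1 was higher and 6 lower at 72 h (median -0.11, against -0.01 over all genes). At 24 h Fkbp5, a chaperone that keeps Nr3c1 in a state of low affinity, was higher (0.45 ± 0.10, adjusted p = 0.000338). The coactivators Ncoa1 (-0.15 ± 0.04, adjusted p = 0.00548) and Ncoa2 (-0.18 ± 0.06, adjusted p = 0.0076) were lower. At 72 h the acetyltransferases Crebbp (-0.52 ± 0.07, adjusted p = 2.52e-07) and Ep300 (-0.23 ± 0.07, adjusted p = 0.00788), the coactivator Ncoa2 (-0.43 ± 0.09, adjusted p = 0.000179) and the arginine methyltransferase Carm1 (-0.24 ± 0.08, adjusted p = 0.0134) were lower. Between the sides of the same brain 4 were higher and 4 lower at 24 h, and 3 higher and 7 lower at 72 h.

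Of 7 membrane and non-classical progesterone receptors, 5 were lower and 0 higher at 24 h (median -0.47), where 50.7% of all genes were called, and 3 lower and 0 higher at 72 h (median -0.26), where 48.4% were. Those named at 24 h were Paqr8 (-0.47, adjusted p = 3.64e-10), Paqr7 (-0.64, adjusted p = 4.85e-10), Paqr6 (-1.14, adjusted p = 5.33e-06) and Paqr5 (-0.79, adjusted p = 0.000236), all members of the family that couples progestins to signals at the membrane. At 72 h Pgrmc2 (-0.24, adjusted p = 0.0021), Paqr9 (-0.43, adjusted p = 0.00267) and Pgrmc1 (-0.26, adjusted p = 0.00564) were lower. Between the sides 1 was higher and 5 lower at both times, beside 51.6% of all genes at 24 h and 64.1% at 72 h. Of 3 estrogen-related orphan receptors, which bind no known steroid, Esrra was lower at 24 h (-0.20, adjusted p = 0.0262) and, with Esrrg (-0.80, adjusted p = 3.11e-05), at 72 h (-0.37, adjusted p = 0.011).

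The 11 listed genes known to respond to corticosteroids all had enough reads and moved in both directions. At 24 h 5 were higher and 1 lower (median 0.33), 6 of 11 beside 50.7% of all genes. The cell cycle inhibitor Cdkn1a (2.00 ± 0.16, adjusted p = 2.53e-13), Errfi1, an inhibitor of growth factor receptors (0.95, adjusted p = 7.08e-11), and Nfkbia, the inhibitor of NF-κB (0.87, adjusted p = 4.08e-09), were higher, genes that injury and inflammation also induce. Tsc22d3, which encodes the glucocorticoid-induced leucine zipper, was lower (-0.69 ± 0.06, adjusted p = 4.6e-12). At 72 h, where 48.4% of all genes were called, 4 were higher and 5 lower (median 0.17), with Tsc22d3 at -1.02 (adjusted p = 2.15e-10), the clock gene Per1 at -1.20 (adjusted p = 1.39e-05), the transcription factor Klf9 at -0.46 (adjusted p = 0.00038) and Cdkn1a at 1.21 (adjusted p = 9.24e-05). Between the sides 8 were higher and 1 lower at 24 h, beside 51.6% of all genes, and 6 higher and 4 lower at 72 h, beside 64.1%.

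Of 11 genes that respond to estrogen or progesterone, mostly in reproductive tissue, 9 had enough reads, and 3 were higher and 3 lower at 24 h (median -0.01), beside 50.7% of all genes called. The cyclin Ccnd1 (0.91, adjusted p = 2.06e-13) and the growth factor Areg (2.21 ± 0.47, adjusted p = 0.00012) were higher, and the survival gene Bcl2 (-0.67, adjusted p = 3.56e-09) and the oxytocin receptor Oxtr (-0.68, adjusted p = 7.28e-07) lower. At 72 h, beside 48.4% of all genes, 2 were higher and 3 lower (median 0.07), with Ccnd1 at 2.21 (adjusted p = 2.48e-19) and Wnt4 (-1.01, adjusted p = 0.000111), the growth factor receptor Igf1r (-0.44, adjusted p = 0.000428) and Oxtr (-0.74, adjusted p = 0.000586) lower. Of 7 enzymes that set how much ligand a receptor meets, 3 had enough reads. H6pd, which supplies the cofactor of Hsd11b1, was higher at 24 h (0.45, adjusted p = 1.06e-05) and 72 h (0.81, adjusted p = 1.21e-06). Hsd11b1, which regenerates corticosterone, was lower at 24 h (-0.42, adjusted p = 0.000331) and 72 h (-0.71, adjusted p = 0.000303), and Srd5a1, which reduces progesterone, had 0.18 (adjusted p = 0.0566) at 24 h and was higher at 72 h (0.63, adjusted p = 6.16e-05).

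The genes whose pattern was most like each receptor, by Pearson's r of log2 CPM over 85 libraries and 14043 genes (14044 for Esr2), are given as a description, since all libraries share the injury contrast and the batches. For Pgr they were Lin7a (0.928), Prkaa2 (0.928) and Rims2 (0.925), and for Nr3c1 Cntn1 (0.896) and Secisbp2l (0.877). Nr3c2 was nearest to Gria1 (0.819), Gpr161 (0.799) and Thsd4 (0.749). Esr1 was nearest to Pde3b (0.725), Tes (0.709) and Cd164 (0.707). The highest values were lower for Esr2, with Nup153 (0.623), Tead1 (0.602) and Apaf1 (0.594), and for Gper1, with Ccnd3 (0.544), Abhd2 (0.542) and Sh2b2 (0.542).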

How the data were processed

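The labels' protocols describe sequencing of polyadenylated RNA from cortical punches. The submitters' processing notes name HISAT2 2.0.5 and mm10. What the authors deposited is 1 table of raw counts, with genes in rows and libraries in columns. Neither the counting program nor its annotation or use of strand is given in the sources used here, so reads of overlapping genes may be shared. Genes were named by GENCODE M21, and 123 genes without a symbol hold 0.062% of counts. Groups, animals, batches and plasma levels come from the labels, and nothing there says that libraries of a batch were made together.

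From the deposited counts, CPM and log2 CPM were derived for display. The counts of each side went into edgeR 4.0.16 (R 4.3.3, limma 3.58.1): filterByExpr, TMM, 6 groups of sex and time, a batch term and the two-sided quasi-likelihood test, with Benjamini-Hochberg adjustment over all genes tested and calls at an adjusted p under 0.05. The ipsilateral fit held 42 libraries (19062 genes, 34 residual degrees of freedom), the contralateral one 43 (18429 genes, 35). Comparisons with naive are means of both sexes. Side comparisons held 84 libraries of 42 animals (19902 genes, 36 degrees of freedom) with the animal, named in the labels, as a block. Batches A and B were set against each other in 28 libraries per side. Standard errors are the log2 fold change divided by the root of F. The code was tested on simulated data.

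The members and the gene lists were chosen with earlier results of these data known. Each comparison tested the receptors that passed its filter, and the text names those a result turns on and gives the range of others. It also names up to 4 genes of each list with the smallest p at 24 h and 72 h, and the 3 genes nearest to each receptor among those whose mean log2 CPM reached 1 (prior count 2). Some genes that this rule takes are not reported here. Alternatives were DESeq2 1.42.0, RLE size factors, no filter, no batch term, 1 batch alone, animals LF3 or PF1 added or left out, 1 library left out at a time, no replicate block and another gene length. The comparisons between batches, of side differences with naive ones and the side fit without PF1 were chosen after seeing the data. Each mouse gives 1 library per side, and closest libraries within a group differed by a chi-square of 2.64 per gene.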

Additional observations from a re-analysis of the deposited data

Results flagged for a closer look

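Of 72 groups of one receptor, side, sex and time, 9 hold a library far from the others by Dixon's criterion, where chance gives about 1 in 20. Esr1 was 5.33 CPM in the contralateral punch of female TF2 at 72 h, where the next was 3.65, and 7.43 CPM in the ipsilateral punch of female QF1 at 24 h, where the next was 3.90. Gper1 was low in 2 contralateral female punches, 2.05 CPM in TF1 at 72 h (next 3.30) and 2.16 CPM in naive GF3 (next 3.46). Nr3c1 was 83.4 CPM in the ipsilateral punch of female FF3 at 24 h (next 99.1). Nr3c2 was 73.3 CPM in the ipsilateral punch of male RM2 at 24 h (next 34.5). Pgr was 47.3 CPM in the contralateral punch of female SF1 (next 52.2) and 37.8 CPM in that of male LM2 (next 49.6), both at 72 h, and 47.5 CPM in the ipsilateral punch of female RF2 at 24 h (next 40.7).

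The effect of injury at 24 h in ipsilateral punches differed between batches A and B for 3 receptors, by a test of the difference itself in edgeR: -0.41 for Pgr (adjusted p = 0.0406), -0.53 for Nr3c1 (adjusted p = 0.0368) and 0.83 for Gper1 (adjusted p = 0.0496), batch A minus batch B on the log2 scale. With RLE size factors in place of TMM the value for Gper1 was 0.78 with an adjusted p of 0.0649.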

How the results depend on the processing

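Of 1279 values recomputed under other settings, 1190 kept their direction and side of the threshold or, where called in neither fit, changed sign by less than 1 SE. In batch B alone the ipsilateral values against naive were -0.054 for Pgr, -0.10 for Nr3c1 and -0.35 for Gper1 at 24 h, and -0.091 for Nr3c1 and -0.0018 for Gper1 at 72 h, none past the threshold; Pgr in females at 24 h changed sign, to 0.020, and contralateral Gper1 at 24 h was -0.078. In batch A alone Esr1 at 24 h was 0.28 ipsilaterally, not called, and -0.15 contralaterally, and contralateral Nr3c1 was -0.094. These fits hold fewer libraries. Without the batch term, contralateral Pgr, Nr3c1 and Nr3c2 at 72 h were -0.046, -0.028 and -0.0042, and with LF3 included Nr3c1 and Nr3c2 were -0.0069 and -0.018, none called. Ipsilateral Esr2 at 72 h was 1.31 without a low-count filter, not called, and contralateral Pgr at 24 h was 0.17 in DESeq2, called. Of 934 values with 1 library left out, 921 kept their call: Esr2 at 72 h ran from 0.91 to 1.53 and contralateral Pgr at 24 h from 0.14 to 0.19. The cause of these changes was not tested.

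With no replicate block, that is without the animal pairing, the side difference of Esr1 at 24 h was 0.38 (adjusted p = 0.0518) and that of Nr3c2 at 72 h 0.32 (adjusted p = 0.0357), and no other receptor call between the sides changed. Without a filter Nr3c2 at 72 h was 0.24 (adjusted p = 0.000923). Leaving out PF1 changed no receptor call on either comparison. The few reads of Esr2 limit what can be said of it. Batch and time are partly confounded, and batch C holds 72 h alone.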
